A study of Mus musculus with 13 samples.

Results

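The 8 genes described here, Cdkn1a, Ccng1, Btg2, Gadd45a, Plk2, Plk3, Sfn and Zmat3, are p53 targets whose products slow or stop the cell cycle. They were taken by symbol from a list drawn up with earlier results of these data known, and all 8 are among the 24421 genes of both deposited count tables. The polyA RNA came from F1-2.1, a line of mouse ES cells with a CAST/Ei x 129/Sv/Jae background, into which a Tet-on CTCF S224E transgene had been placed. S224E puts glutamate where Ser224 was, as a mimic of phosphorylated serine. A single clone, A2, was kept with LIF over γ-irradiated fibroblast feeders (MEFs), either with 1 μg/mL doxycycline for 6 days (+dox) or without it (−dox), in 2 biological replicates each. The vector also makes EGFP when dox is added, both groups keep the endogenous Ctcf genes, and no library with dox but without the transgene was analysed, so effects of dox, EGFP and S224E cannot be told apart.

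The protein p53 is a transcription factor that is held at a low level by the ubiquitin ligase Mdm2 and accumulates after DNA damage and other stress. It then binds pairs of a short repeat in DNA and raises the transcription of its target genes. Cdkn1a encodes p21, which inhibits cyclin-dependent kinases (CDKs) and so keeps the Rb family and the DREAM complex in the state that represses cell cycle genes. The other targets act on the G2/M transition, on mRNA turnover or on p53 itself. Mouse ES cells have a short G1 phase and divide quickly, and their p53 is also known for driving differentiation.

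The counted reads per library ran from 22899107 to 30206085, and values are given as CPM, counts per 1000000 reads after TMM scaling of the libraries. ES cell genes were abundant in every library, with 5554 to 7039 CPM summed over 10 markers such as Pou5f1 and Nanog. Ctcf, whose counts hold endogenous and transgene reads together, had 327 and 329 CPM with dox against 295 and 304 without (log2 fold change 0.13, adjusted p-value 0.475 in edgeR's quasi-likelihood test). Markers of fibroblasts, the cell type of the feeders, moved with the groups. Summed over 16 fibroblast genes, they came to 1889 CPM in +dox replicate 1, 1032 in +dox replicate 2, and 778 and 870 without dox. Vim gave the largest part of each sum, with 759 and 527 CPM with dox against 360 and 429 without. The p-values set each difference against a spread between libraries of a group that the tests estimate partly from the other genes. All libraries are from a single clone, so differences between clones are not covered.

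The p53 binding element was looked for within 3000 nt on either side of each deposited transcript start, as 2 adjoining copies of the published consensus repeat of 10 bases, which reads the same on both strands. Sites with at most 1 base off the consensus, and none off in the 2 cores, were found at 3 of the 8 arrest targets. They were also found at 1 of 40 other p53 targets and near 0.793% of all 24349 genes that could be placed. The limits of the search were set after its hits were seen, so these shares do not test the arrest targets against other genes. The sites are shown because they are the sequences by which p53 is known to act on its targets. With at most 2 bases off, Plk2 also had sites, and the share of all genes was 3.79%. The sequences below are from mm9, read 5′ to 3′ on the strand of each gene. Capitals mark the CWWG core of each repeat, where W is A or T.

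Cdkn1a: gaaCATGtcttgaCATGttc
Ccng1: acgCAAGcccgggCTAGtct
Zmat3: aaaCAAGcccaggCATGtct
Plk2, distal: caaCATGcccgggCTTGcat
Plk2, proximal: gatCTTGcttagaCTTGttg

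The Cdkn1a site (chr17:29227873-29227892) lies between genes, 2841 nt upstream of the deposited start and 51 nt upstream of the earliest start in GENCODE. It has 1 base off the consensus, and so does the Ccng1 site (chr11:40568438-40568457), which is within an intron 331 nt downstream of the start. The Zmat3 site (chr3:32263253-32263272) matches at every base and lies in an intron 1315 nt downstream. The Plk2 sites (chr13:111183090-111183109 and chr13:111184602-111184621) each have 2 bases off and lie 2162 and 650 nt upstream. No stretch passing these criteria was found in the windows of Btg2, Gadd45a, Plk3 and Sfn. A match is only a description of the letters, and binding was not measured here.

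All 8 transcripts were readily detected in uninduced cells. Per kb of counted exon, Cdkn1a had the highest level in −dox cells, 99.6 ± 0.17 CPM per kb (SD, n = 2), and stood clear of the rest. Ccng1 (66.4 ± 2.18), Gadd45a (55.5 ± 13.1), Sfn (46.2 ± 11.3), Plk2 (45.4 ± 1.5) and Btg2 (39.2 ± 6.22) came next, and each of these lay within the SDs of its neighbour among them. Plk3 (29.3 ± 1.17) and Zmat3, with the longest exons (7774 nt) and 12.98 ± 1.31 CPM per kb, were lower than these by more than the SDs. Each gene had at least 1155 reads in every library.

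Between +dox and −dox cells the arrest targets differed modestly, and not all in the same direction. Cdkn1a, Ccng1, Btg2, Plk2, Plk3 and Zmat3 were higher in both +dox libraries than in both −dox libraries, by 1.18- to 1.38-fold in the fit. Gadd45a was lower in both +dox libraries, and the groups overlapped for Sfn. Of all genes averaging 10 CPM or more, 28.5% had both +dox libraries above both −dox libraries and 26% below, so the groups of 54.5% did not overlap. In edgeR's quasi-likelihood test over 20044 genes, 0 of the 8 passed an adjusted p-value under 0.01, which 0.599% of all genes passed (0.0798% higher and 0.519% lower), while 6 had an unadjusted p-value under 0.05, as did 17.8% of all genes. At 0.05, 2 of the 8 passed, with 2.86% of all genes. DESeq2, the tool named in the study's methods, called 2 of the 8, Cdkn1a and Ccng1, both higher, with 1.87% of all genes called (0.589% higher and 1.28% lower). The median log2 fold change of the 8 was 0.31, with 0.30 in replicate 1 and 0.28 in replicate 2, and that of all genes tested was 0.01. In bulk RNA, a change in the number of cells that express a gene and a change in its RNA per cell cannot be told apart.

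**Figure D1:**
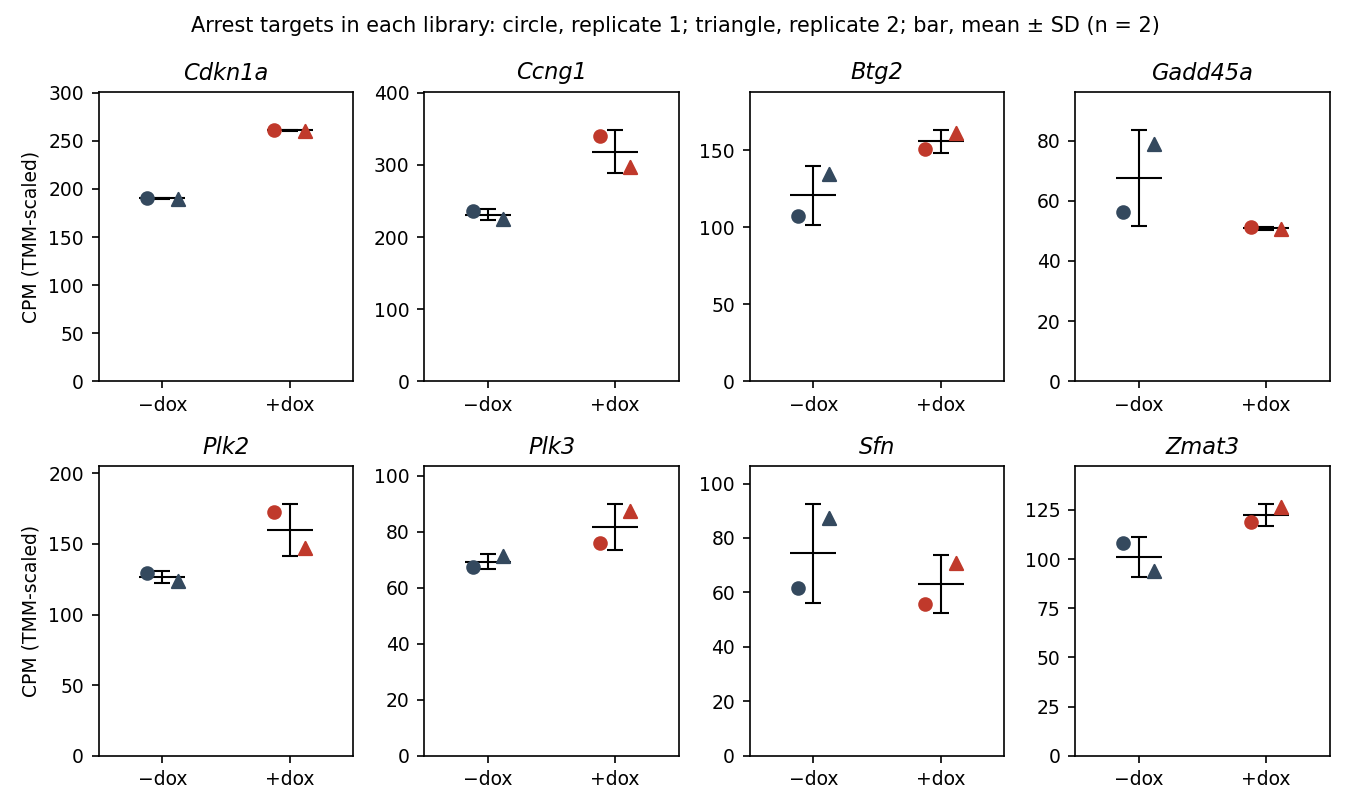
CPM of each arrest target in the 2 −dox and 2 +dox libraries, with a panel for each gene, circles for replicate 1, triangles for replicate 2, and bars for the mean ± SD (n = 2). Cdkn1a sits near 190 CPM without dox and near 261 with dox in both replicates, while the groups of Sfn overlap.

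Cdkn1a (NM_007669, chromosome 17, 29230714 to 29237667 in mm9) encodes the CDK inhibitor p21. It had 261 CPM in each +dox library and 190.3 and 189.9 CPM in the −dox libraries. The replicates of a group were thus closer to each other than for any other arrest target, and the groups did not overlap. The fit put it 1.37-fold higher (log2 fold change 0.46, 95% interval 0.27 to 0.65), and each replicate alone also gave 0.46. Its call depends on the test, with adjusted p-values of 0.0196 (edgeR) and 4.18e-04 (DESeq2). Annotated exons of Cdkn1a overlap those of no other gene.

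Ccng1 (NM_009831, chromosome 11, 40562054 to 40568788) encodes cyclin G1, which brings the phosphatase PP2A to Mdm2 and so feeds back on p53. It had 340 and 297 CPM with dox against 236 and 226 without, and the groups did not overlap. This was a 1.38-fold difference (log2 fold change 0.46, 95% interval 0.26 to 0.67), the highest estimate among the arrest targets, though level with that of Cdkn1a. Replicate 1 gave 0.52 and replicate 2 gave 0.40, with adjusted p-values of 0.0261 (edgeR) and 0.00200 (DESeq2).

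The factor itself and its main feedback target differed by about as much. Trp53, which encodes p53, had 1060 and 1093 CPM with dox against 809 and 816 without, a log2 fold change of 0.41 (95% interval 0.24 to 0.58). Mdm2 had 293 and 283 CPM with dox against 206 and 222 without, a log2 fold change of 0.43 (95% interval 0.23 to 0.62). Neither passed 0.01 in edgeR (adjusted p-values 0.0211 and 0.0289), and both did in DESeq2 (7.35e-04 and 0.00233).

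Btg2 and Zmat3 act on RNA. Btg2 (NM_007570, chromosome 1, 135971442 to 135975732) encodes an antiproliferative protein that recruits the CCR4-NOT deadenylase to mRNAs. It had 150.5 and 161 CPM with dox against 107 and 134 without, which did not overlap but left a wide gap between the −dox libraries. The log2 fold change was 0.37 (95% interval 0.12 to 0.62, adjusted p-value 0.109 in edgeR), and without −dox replicate 1 it was 0.21. Zmat3 (NM_009517, chromosome 3, 32233716 to 32264587) encodes a zinc finger protein that binds RNA and affects splicing and stability. It had 119 and 126 CPM with dox against 108 and 93.7 without, with +dox replicate 1 only slightly above −dox replicate 1. Its log2 fold change was 0.28 (95% interval 0.05 to 0.51, adjusted p-value 0.178 in edgeR), 0.13 in replicate 1 and 0.43 in replicate 2, the most uneven of the 6 higher genes.

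Plk2 and Plk3 encode stress-responsive polo-like kinases, relatives of Plk1, the kinase that drives mitosis. Plk2 (NM_152804, chromosome 13, 111185252 to 111191051), known for its part in centriole duplication, had 173 and 147 CPM with dox against 129 and 124 without. Both +dox libraries were higher, but replicate 1 more so, with log2 fold changes of 0.42 and 0.25. The fit gave 0.34 (95% interval 0.11 to 0.56, adjusted p-value 0.103 in edgeR) and 0.22 without +dox replicate 1. Without +dox replicate 2 it gave 0.45. Plk3 (NM_013807, chromosome 4, 116801260 to 116806568) had 76.0 and 87.5 CPM with dox against 67.3 and 71.2 without. The groups were close together, and the 95% interval of its log2 fold change of 0.24 ran from -0.0033 to 0.48 (adjusted p-value 0.289 in edgeR). An exon of Plk3 overlaps Tctex1d4 on the opposite strand, and whether counting used the strand is not stated, but Tctex1d4 had no more than 19 reads in any library.

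Gadd45a and Sfn, whose products both act on the Cdk1-cyclin B kinase of the G2/M transition, had lower means with dox. Gadd45a (NM_007836, chromosome 6, 66985090 to 66987401) encodes a stress sensor that also binds PCNA. It had 51.3 and 50.6 CPM with dox against 56.3 and 78.9 without, so that most of the difference came from −dox replicate 2. The log2 fold change was -0.41 (95% interval -0.73 to -0.09, adjusted p-value 0.161 in edgeR), with -0.13 in replicate 1 and -0.64 in replicate 2. It was -0.14 without −dox replicate 2 and -0.63 without −dox replicate 1. Its exons overlap the noncoding E230016M11Rik on the opposite strand, which had no more than 21 reads in any library. Sfn (NM_018754, chromosome 4, 133156471 to 133158083) encodes 14-3-3σ, which holds Cdk1-cyclin B in the cytoplasm and is typical of epithelia. It had 55.6 and 70.7 CPM with dox against 61.5 and 87.2 without, and the groups overlapped. Its log2 fold change was -0.23 (95% interval -0.58 to 0.12, adjusted p-value 0.506 in edgeR), and without −dox replicate 2 it was 0.037.

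Markers of simple epithelium were also lower with dox. All 8 on the list were lower in both +dox libraries, as were 26% of all genes averaging 10 CPM or more. Of the 8, 3 fell in edgeR's test (0.519% of all genes), Krt8 (log2 fold change -2.39), Krt18 (-1.96) and Krt19 (-1.70), which encode keratins. The summed level of the 8 markers was 642 and 538 CPM with dox against 988 and 1063 without. Cdh1 gave the largest part of each sum, with 365 and 296 CPM with dox against 464 and 445 without. Among the trophectoderm markers, which share both Krt8 and Krt18, these were the only genes called, and the other 5 had at most 14.3 CPM in any library. The part of epithelial cells in the values of Sfn was not tested.

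**Figure D2:**
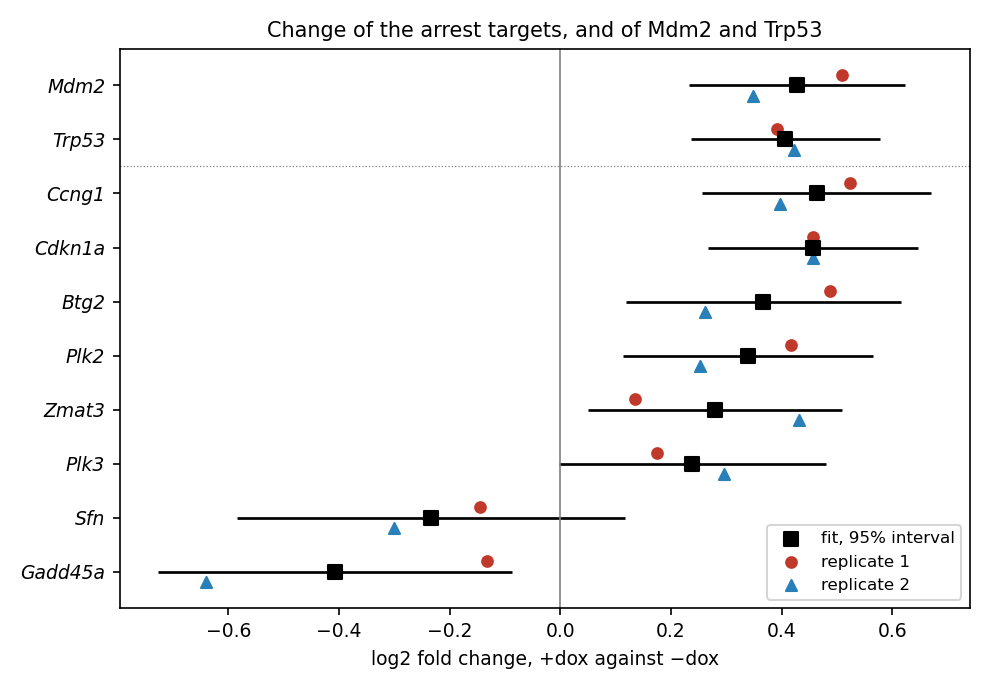
Log2 fold change of the 8 arrest targets and, above the dotted line, of Mdm2 and Trp53 between +dox and −dox libraries. Squares are the fit with its 95% interval, circles replicate 1 and triangles replicate 2. The intervals of Cdkn1a and Ccng1 start at 0.27 and 0.26, that of Gadd45a lies below 0, and those of Plk3 and Sfn include 0.

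The fibroblast genes differed far more in replicate 1 than in replicate 2. All but Tagln of the 16 fibroblast markers were higher in both +dox libraries, as were 28.5% of all genes averaging 10 CPM or more. None was called by edgeR at 0.01 (0.599% of all genes), and DESeq2 called 1, Vim (1.87%). Of the 16 markers, 14 had an unadjusted p-value under 0.05 in edgeR (17.8% of all genes). Their median log2 fold change was 1.61 in replicate 1 and 0.40 in replicate 2, against 0.30 and 0.28 for the arrest targets. Irradiation is a classical activator of p53, and the part of feeder RNA in the values of the arrest targets was not tested. Without +dox replicate 1, the library with the most fibroblast RNA, log2 fold changes were 0.45 for Cdkn1a, 0.36 for Ccng1 and 0.43 for Trp53. That of Plk2 was 0.22, against 0.34 with all libraries, and the median of the 8 arrest targets was 0.33. The remaining +dox library still had 1032 CPM summed over the fibroblast genes, against 778 and 870 without dox. The log2 fold change of Cdkn1a was 0.46 without +dox replicate 2, 0.46 without −dox replicate 1 and 0.45 without −dox replicate 2. Each of these fits left 1 library in a group, which was assumed to vary as the other group did.

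**Figure D3:**
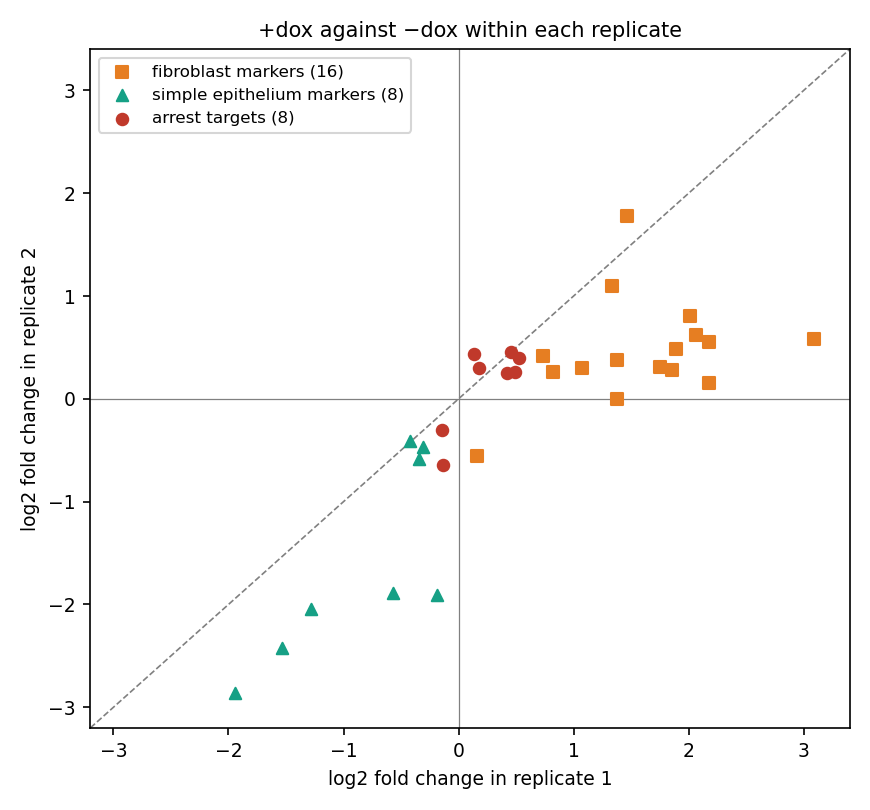
Log2 fold change of +dox against −dox within replicate 1 (x axis) and within replicate 2 (y axis) for the arrest targets (circles), fibroblast markers (squares) and simple epithelium markers (triangles). The dashed line marks equal change, and most fibroblast markers lie to its right, while the arrest targets stay between -0.64 and 0.52.

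Of the 40 other p53 targets examined, which include regulators of apoptosis, metabolism and DNA repair, 29 had a positive log2 fold change (50.8% of all genes). In 26 it was positive in both replicates, for which no share over all genes was computed, and the median was 0.25. edgeR called 2 (0.599% of all genes), Ephx1 higher and Ddit4 lower. Ephx1 encodes microsomal epoxide hydrolase and had 68.7 and 47.1 CPM with dox against 30.5 and 26.1 without, a log2 fold change of 1.03 (adjusted p-value 0.00901). Ddit4, an mTORC1 inhibitor that hypoxia also induces, had 71.5 and 59.8 CPM with dox against 110 and 123 without, a log2 fold change of -0.82 (adjusted p-value 0.00332). DESeq2 called 4 (1.87% of all genes), the other 2 being Mdm2 and Phlda3, which encodes an Akt inhibitor (log2 fold change 0.51). Fits that left out any 1 library, with or without dox, could not test these calls, since a single library then remained in a group. Among those not called by edgeR, the highest estimate above 1 CPM was that of Thbs1, with 757 CPM in +dox replicate 1 but 228 in +dox replicate 2 and 236 and 222 without dox, so it rests on the library with the most fibroblast RNA. Gls2, a mitochondrial glutaminase, was at the low end with a log2 fold change of -0.42 (adjusted p-value 0.181).

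**Figure D4:**
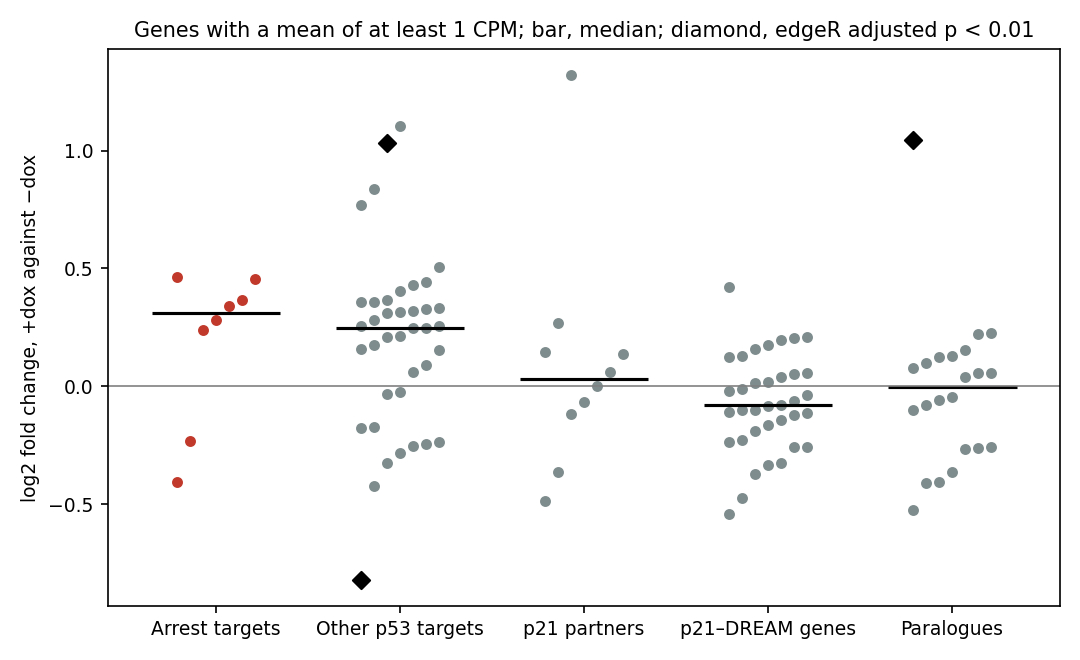
Log2 fold change between +dox and −dox libraries for the genes of each list with a mean of 1 CPM or more. Bars are medians (0.31 for the arrest targets, 0.25 for the other p53 targets, 0.03 for the p21 partners, -0.08 for the p21–DREAM genes and -0.0016 for the paralogues), and black diamonds are genes with an adjusted p-value under 0.01 in edgeR.

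Transcripts of the proteins that p21 acts on were not called. Of 10 partners (CDKs, D cyclins, PCNA and the Rb family), 5 had positive and 5 negative log2 fold changes, the median was 0.03, and 0 were called by edgeR or DESeq2, with 2 at an unadjusted p-value under 0.05 (17.8% of all genes). Ccnd2, which encodes cyclin D2, had the highest estimate (1.32), with 82.5 CPM in +dox replicate 1, 29.2 in +dox replicate 2, and 23.9 and 20.7 without dox. Cdk6, a G1 kinase, was at the low end with 23.1 and 19.7 CPM with dox against 31.5 and 28.3 without (log2 fold change -0.49, adjusted p-value 0.109 in edgeR). Rbl2 was next highest with 0.27 and Rbl1 next lowest with -0.36, both encoding pocket proteins of the Rb family.

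Cell cycle genes that are lowered downstream of p21 through DREAM and E2F differed in both directions, and none was called by edgeR. Of 36 such genes, 23 had a negative and 13 a positive log2 fold change, with a median of -0.08, which was -0.09 in replicate 1 and -0.02 in replicate 2. edgeR called 0 of them, 11 had an unadjusted p-value under 0.05 (17.8% of all genes), and DESeq2 called 1 (1.87% of all genes). At the low end were Kif23, a kinesin of cytokinesis (log2 fold change -0.54), and Ccne2, which encodes cyclin E2 (-0.47). At the high end were Ube2c (0.42, adjusted p-value 0.0348 in edgeR and 0.00581 in DESeq2) and Cdc20 (0.21), which act in the anaphase-promoting complex pathway. Summed over the 36 genes, the level was 10247 and 10547 CPM with dox against 10489 and 10588 without.

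Relatives of the arrest targets had a median log2 fold change of -0.0016 over 22 genes, 11 positive and 11 negative. Cdkn1c, which encodes the CDK inhibitor p57 and is imprinted, rose in edgeR's test, as the only call among them (0.599% of all genes were called). It had 24.7 and 23.1 CPM with dox against 11.7 and 11.4 without, a log2 fold change of 1.05 (SE 0.16, adjusted p-value 0.00577), and its groups did not overlap. Leaving out any 1 library, with or without dox, could not test this call, since a single library then remained in a group. The third gene of that family, Cdkn1b, which encodes p27, had 41.4 and 37.7 CPM with dox against 47.4 and 47.9 without (log2 fold change -0.27, adjusted p-value 0.276). Ywhaz, a 14-3-3 gene, was next highest with 0.22. Zmat4 (-0.52) and Plk5 (-0.41) were lowest, and Gadd45b was close to them and to Gadd45a (-0.40).

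The genes whose profile over the 4 libraries was most like that of Cdkn1a were sought among 9969 others averaging 10 CPM or more, by the root mean square difference of log2 CPM after centring each gene. The nearest were Mov10l1 (0.020), Syce1 (0.021), Cd81 (0.022), Ppan (0.024) and Ap1m1 (0.026), each with a log2 fold change between 0.41 and 0.49. Among the arrest targets Ccng1 was nearest (0.071), at rank 154, followed by Plk2 (0.104), and Gadd45a was farthest (0.456).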

How the data were processed

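Per the study's methods, the authors' counts come from HOMER, based on uniquely mapped, de-duplicated reads in exons, after adapter trimming (cutadapt) and TopHat2 alignment against mm9. The deposited values are raw counts per gene, in a table for each replicate. Tool versions and strand handling are not given in the sources used here. Tables were joined by symbol. Another transcript is listed for 547 genes in the second table, but for none of the 8 arrest targets. The 20044 genes with a count in any library entered edgeR 4.0.16 (R 4.3.3) with TMM, the quasi-likelihood test at its defaults and no replicate block. Benjamini-Hochberg adjustment covered all of these genes, and 0.01 was the threshold. The 95% intervals use SEs taken from the test statistic, and log2 fold changes within a replicate use a prior count of 2. DESeq2 1.42.0 ran with its defaults.

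Replicates of a group differed by more than counting noise (chi-square per degree of freedom 19.2 with dox and 13.2 without). Alternatives were DESeq2, edgeR's likelihood ratio test, adjusted deviances, a replicate block, other scaling or filtering, a threshold of 0.05 and leaving out each library. Members and gene lists (other p53 targets, p21 partners, p21–DREAM genes, paralogues, and markers of ES cells, fibroblasts, simple epithelium, trophectoderm and mesendoderm) were chosen with earlier results of these data known. Named genes are the members, Trp53, Mdm2, Ctcf, called genes of the lists, the 2 highest and 2 lowest log2 fold changes above 1 CPM of the p53, partner and paralogue lists, and the 5 genes nearest to Cdkn1a. Gadd45b, Cdkn1b, Phlda3, Kif23, Ccne2, Ube2c, Cdc20, Tagln, Vim and Cdh1 were named after their values were seen. The limits of the p53 site search were also set after its hits were seen. The site search was tested on a simulated sequence with a planted site. ChIP-seq and Hi-C samples were not analysed here.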

Additional observations from a re-analysis of the deposited data

How the results depend on the processing

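Of 110 alternative values of the 8 arrest targets, Trp53 and Mdm2, 90 kept their direction and side of the threshold, 19 kept the direction and passed where the main test did not, and 1 reversed. This was Sfn, at 0.037 without −dox replicate 2, and leaving out single libraries gave -0.46 to 0.037. The arrest targets called went from 0 to 2 with DESeq2, the likelihood ratio test and a threshold of 0.05, and to 0 to 3 without single libraries, namely Cdkn1a without +dox replicate 1, Cdkn1a, Ccng1 and Plk2 without +dox replicate 2, and 0 without either −dox library. Their median of 0.31 became 0.27 with total counts and 0.28 to 0.33 without single libraries.

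The other p53 targets called (2) became 4 with DESeq2, the likelihood ratio test or 0.05, 1 with total counts, 0 with adjusted deviances or filterByExpr, and 0 to 6 without single libraries. The p21–DREAM genes (0) became 1 with DESeq2 or 0.05 and 0 to 3 without single libraries, and the partners (0) 0 to 1. The paralogue call (1) became 0 with adjusted deviances, total counts or filterByExpr, and 0 to 1 without single libraries. Over all genes, 120 calls became 375 with DESeq2, 457 with the likelihood ratio test, 0 with adjusted deviances, 11 with filterByExpr and 573 at 0.05. They came to 992 without +dox replicate 1, 877 without +dox replicate 2 and 0 without either −dox library, the lone sample being assumed to vary like the other group. The cause of these shifts was not tested.

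With the replicate number as a block, 2 arrest targets were called, Cdkn1a (adjusted p-value 0.00107) and Ccng1 (8.26e-04), and 6 other p53 targets, 3 p21–DREAM genes, 1 partner and 786 genes in all. The labels do not say that a number marks a shared batch, and with 2 pairs the deviations of same-numbered libraries correlated at 0.196.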

Other observations

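Mesendoderm markers, which include T, Eomes and Lhx1, were lower with dox in all 9 cases, with a median log2 fold change of -2.57. edgeR called 7 of these 9 markers lower, with 0.519% of all genes called lower. Their summed level was 32.2 and 34.2 CPM with dox against 147 and 182 without. Of the 10 ES cell markers 9 had a positive log2 fold change (50.8% of all genes), with a median of 0.21. Of these 10, 0 were called by edgeR or DESeq2, with 5 at an unadjusted p-value under 0.05 in edgeR (17.8% of all genes). The trophectoderm list had a median of 0.44 over its 7 genes but -0.76 over the 6 above 1 CPM, so its sign turned with the low gene Elf5, and edgeR called 2, both keratins that were lower.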
